A study of Homo sapiens with 12 samples.

Results

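Oxidative phosphorylation is carried out by 5 protein complexes of the inner mitochondrial membrane. Complex I takes electrons from NADH and complex II takes them from succinate. Complex III passes them to cytochrome c, complex IV gives them to oxygen, and complex V, the ATP synthase, uses the proton gradient that complexes I, III and IV build. Complex II is made wholly from nuclear genes, whereas the other complexes also hold a few subunits encoded by mitochondrial DNA. The nuclear-encoded genes of these complexes were followed here in MDA-MB-231, a triple-negative breast cancer cell line. They were chosen by name alone, as protein-coding genes whose symbol starts with NDUFA, NDUFB, NDUFC, NDUFS, NDUFV, UQCR, COX4 to COX8 or ATP5, together with SDHA, SDHB, SDHC and SDHD. The rule took 98 of the 58051 genes in the count table and used no measured value.

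By role, 37 of the 98 genes encode subunits of complex I, 4 of complex II, 9 of complex III, 19 of complex IV and 17 of complex V. Complex IV includes the COX genes, NDUFA4, which keeps an older complex I name but belongs to complex IV, and its relative NDUFA4L2. A further 8 genes, NDUFAF1 to NDUFAF8, encode assembly factors of complex I, which help to build the enzyme and are not part of it. The genes ATP5S and ATP5SL carry the prefix without encoding a subunit, and NDUFC2-KCTD14 and ATP5J2-PTCD1 are read-through genes that span a subunit gene and its neighbour. Of the 98 symbols, 20 have since been renamed, most of them in complex V, where ATP5B is now ATP5F1B and ATP5E is now ATP5F1E.

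Total RNA was sequenced in 4 groups of 3 libraries. The cells received a non-targeting siRNA pool (siControl), an siRNA pool against NELFA (siNELFA), a pool against YAP1 (siYAP), or both targeting pools (siNELFA+siYAP). NELFA is a subunit of the negative elongation factor, which holds RNA polymerase II paused near promoters, and YAP1 is the transcriptional coactivator at the end of the Hippo pathway. All groups share the parental line, the transfection reagent and an siRNA dose given as 50 to 100 nM, and the time is given as 48 h and 72 h in the labels and as 72 h in the study's methods. The pools silence transiently, so some target RNA remains in every knockdown. In the library names, the siControl, siNELFA and siYAP libraries each carry their own replicate number. All siNELFA+siYAP libraries carry the same replicate number, followed by a further number. The study's methods give 3 independent biological replicates, and whether the siNELFA+siYAP libraries are repeats of a single replicate is not stated.

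Libraries held 9608145 to 18803104 counts. Target RNA followed the labels in all libraries. Levels are given as normalized CPM, counts scaled to library size with TMM factors. NELFA was at 25.3, 27.7 and 28.1 CPM in the siControl libraries. It was at 9.88, 9.12 and 7.13 CPM with siNELFA, at 33.2, 25.0 and 22.3 CPM with siYAP and at 8.13, 6.72 and 6.33 CPM with both pools. YAP1 was at 302, 270 and 248 CPM in the siControl libraries. It was at 290, 249 and 254 CPM with siNELFA, at 45.4, 45.0 and 37.8 CPM with siYAP and at 43.8, 40.7 and 40 CPM with both pools. VIM, a mesenchymal marker that is high in this line, was at 1390 ± 215 CPM (SD, n = 3) in siControl, and the T cell marker CD3E had no count in any library. The replicate 1 libraries of siControl, siNELFA and siYAP stood apart from replicates 2 and 3. CDH1, an epithelial cadherin that this line largely lacks, was at 24.9, 46.6 and 16.0 CPM in these 3 libraries and at most 0.942 CPM in the other 9. Values without them are given beside the results that they moved most, and their part in the results was not tested beyond that.

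Some promoters are shown first, because binding sites for NRF1, ETS factors and YY1 recur in the promoters of respiratory chain genes. The sequences are from RefSeq on GRCh38.p14 and run from 130 bases before the annotated start to 40 after, 5′ to 3′ on the gene's strand. Capitals mark 3 motifs searched on both strands: GCGCA followed by any base and GCGC, bound by NRF1, CCGGAAGT, bound by ETS factors such as GABPA, and AAGATGGC, bound by YY1. These motifs do not overlap in the sequences shown. The first 6 sequences are the complex III promoters that hold a motif, and the last 2 belong to genes that passed the blocked test with siNELFA and hold none.
UQCR10, chr22:29767239-29767408, plus strand: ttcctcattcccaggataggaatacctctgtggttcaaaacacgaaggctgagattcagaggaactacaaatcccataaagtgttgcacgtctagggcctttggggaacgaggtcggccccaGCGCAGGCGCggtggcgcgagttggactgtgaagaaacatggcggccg
UQCR11, chr19:1605423-1605592, minus strand: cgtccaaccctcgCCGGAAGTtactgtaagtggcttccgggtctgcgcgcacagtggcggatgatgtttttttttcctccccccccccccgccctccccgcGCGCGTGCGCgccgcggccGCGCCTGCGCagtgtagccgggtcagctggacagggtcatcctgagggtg
UQCRC1, chr3:48609607-48609776, minus strand: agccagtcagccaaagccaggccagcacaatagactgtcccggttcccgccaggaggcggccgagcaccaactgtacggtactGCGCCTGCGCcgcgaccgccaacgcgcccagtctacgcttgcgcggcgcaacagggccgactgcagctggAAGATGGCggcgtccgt
UQCRFS1, chr19:29213112-29213281, minus strand: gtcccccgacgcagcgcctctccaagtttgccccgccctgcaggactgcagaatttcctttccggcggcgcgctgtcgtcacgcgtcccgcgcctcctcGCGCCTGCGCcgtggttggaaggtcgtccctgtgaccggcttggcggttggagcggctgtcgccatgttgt
UQCRH, chr1:46303568-46303737, plus strand: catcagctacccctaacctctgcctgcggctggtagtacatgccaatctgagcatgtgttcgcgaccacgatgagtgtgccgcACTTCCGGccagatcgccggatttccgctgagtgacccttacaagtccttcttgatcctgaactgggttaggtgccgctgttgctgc
UQCRQ, chr5:132866512-132866681, plus strand: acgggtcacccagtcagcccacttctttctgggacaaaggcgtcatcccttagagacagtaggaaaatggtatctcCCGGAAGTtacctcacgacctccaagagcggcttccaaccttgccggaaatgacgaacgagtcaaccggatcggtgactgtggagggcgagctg
COX7A2, chr6:75243762-75243931, minus strand: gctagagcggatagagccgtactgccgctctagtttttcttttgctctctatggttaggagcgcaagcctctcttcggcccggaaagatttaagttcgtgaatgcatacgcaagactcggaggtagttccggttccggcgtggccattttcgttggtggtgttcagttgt
NDUFAF3, chr3:49021991-49022160, plus strand: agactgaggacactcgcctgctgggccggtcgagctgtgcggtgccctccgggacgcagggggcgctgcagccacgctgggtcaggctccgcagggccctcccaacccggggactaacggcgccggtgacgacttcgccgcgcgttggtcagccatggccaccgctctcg

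A promoter was found in the RefSeq table for 76 of the 98 genes. In the full window of 250 bases before to 50 after the start, 17 of the 76 (22.4%) held the NRF1 motif, against 7.95% of 15843 promoters of protein-coding genes. The ETS motif was in 10 (13.2%, against 5.85%) and the YY1 motif in 13 (17.1%, against 3.88%). At least 1 of the 3 motifs was in 33 of the 76 (43.4%) and in 16% of the protein-coding promoters. Complexes differed in the share. All 3 complex II promoters and 6 of 7 complex III promoters held a motif, as did 7 of 11 in complex V, 12 of 32 in complex I and 3 of 14 in complex IV. A match says only that the letters are in the window.

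In siControl, complexes IV and V held the most abundant transcripts per length. The unit here is the deposited TPM, which divides by gene length. Among genes with at least 1 TPM, the median level was 57 TPM in complex I (37 genes), 73.7 in complex II (4), 69.3 in complex III (9), 175 in complex IV (13) and 122 in complex V (15), and 18.3 for the 8 assembly factors. The highest level was that of ATP5J2, the f subunit of the membrane part of ATP synthase, at 364 ± 32 TPM (SD, n = 3). ATP5B, the catalytic beta subunit, was at 239 ± 44.8 TPM. In complex IV the highest were COX7C at 283 ± 43.1 TPM, COX6A1 at 268 ± 34.2 TPM and COX8A at 264 ± 91.5 TPM, whose means lie within each other's spread. In complex III, UQCRQ at 196 ± 36.6 TPM, UQCRB at 187 ± 82.4 TPM and UQCRH at 145 ± 14.1 TPM led. In complex I the highest were NDUFS5 at 157 TPM, NDUFS8 at 156 TPM and NDUFA12 at 145 TPM, and the lowest was NDUFC1 at 18.9 TPM. The 4 genes of complex II lay close together, from 62 TPM for SDHC to 93.4 TPM for SDHA, a ratio of 1.51, while complex I spanned a ratio of 8.31 and complex V one of 8.54. NDUFAF1 was the lowest assembly factor at 9.06 TPM.

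**Figure D1:**
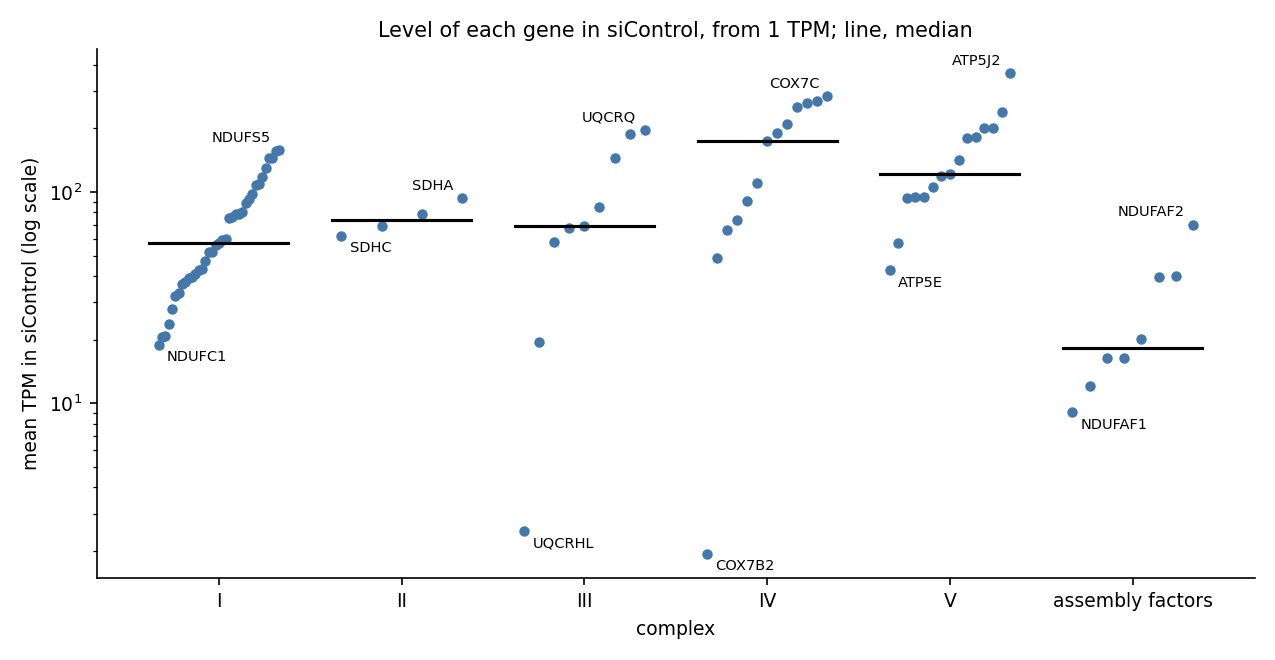
Mean TPM over the 3 siControl libraries for each gene of at least 1 TPM (points, log axis), by complex, with the median as a line and the highest and lowest gene of each set named. Complexes IV and V lie above the others by their medians of 175 and 122 TPM, and UQCRHL and COX7B2 lie far below the rest of their complexes.

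Several subunits exist as pairs of genes used in different tissues, and only 1 of each pair was well expressed here. The ubiquitous COX4I1 was at 253 ± 28.8 TPM in siControl, while COX4I2, its lung and hypoxia form, had 0 counts in all 12 libraries. COX6A1 was at 268 TPM and the heart and skeletal muscle form COX6A2 had 0 counts in all 12. A count of 0 allows up to 3 counts, or 0.312 CPM in the smallest library. COX7A2 was at 210 ± 5.35 TPM, and the muscle form COX7A1 had 0 to 2 counts in each library. COX6B1 was at 190 ± 11.8 TPM, against 0 to 25 counts per library for the testis form COX6B2. COX7B was at 66.2 ± 20.8 TPM and COX7B2 at 1.94 ± 0.566 TPM. COX8C and NDUFA4L2 had at most 4 and 2 counts in any library. The 3 genes for the c subunit of ATP synthase, which differ in their targeting peptides and give the same mature protein, were all expressed, with ATP5G3 at 122 ± 27.8 TPM, ATP5G2 at 106 ± 18.7 TPM and ATP5G1 at 94.9 ± 44.2 TPM, levels that did not differ beyond their spread. In all, 89 of the 98 genes averaged at least 50 counts, and 8 averaged under 10.

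The summed level of the 98 genes was slightly higher in the groups with siNELFA than in those without. The siControl libraries had sums of 4730, 5130 and 5080 CPM and the siNELFA libraries 5330, 5450 and 5370 CPM. The siYAP libraries had sums of 4760, 5100 and 5070 CPM, and those with both pools 5310, 5420 and 5380 CPM. All 6 libraries with siNELFA were higher than all 6 without. As a share of all counts, without TMM factors, siControl at 0.498% ± 0.0376 and siNELFA at 0.522% ± 0.0292 (SD, n = 3) overlapped. In summed TPM the order turned, with 8250 ± 610 in siControl and 7760 ± 490 in siNELFA, so the direction depends on the scaling. Complex V gave 1340, 1610 and 1590 CPM in siControl and 1720, 1710 and 1700 in siNELFA+siYAP, groups that did not overlap. Complex IV gave 796, 816 and 859 CPM in siControl, 915, 914 and 894 in siNELFA and 873, 920 and 907 in siNELFA+siYAP, again without overlap with siControl. In complexes I, II and III the summed CPM of siControl and siNELFA+siYAP overlapped. The scaling mattered for complex IV too. As a share of counts it was 0.0765% to 0.0877% in siControl and 0.0841% to 0.0914% in siNELFA, which overlap. Its mean summed TPM was 2040 ± 99.6 in siControl, 1920 ± 100 in siNELFA and 1970 ± 104 in siNELFA+siYAP. Complex V overlapped in summed TPM, at 2000 to 2490 in siControl and 2260 to 2400 in siNELFA+siYAP. In bulk RNA a lower level in every cell and fewer cells at a high level cannot be told apart.

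**Figure D2:**
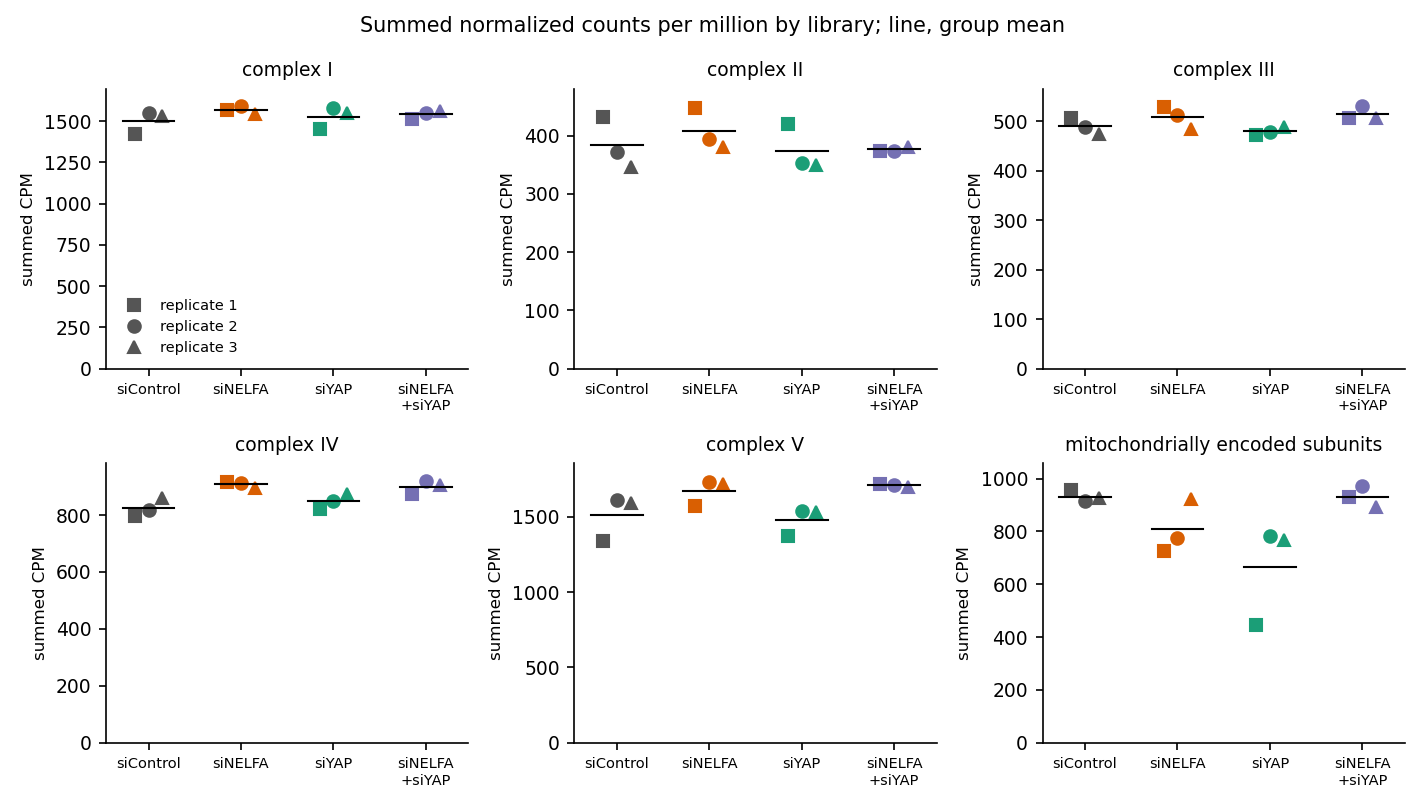
Summed normalized CPM per library for the nuclear-encoded genes of complexes I to V and for the 13 mitochondrially encoded subunits; marker shape gives the replicate, the line the mean of 3 libraries, and axes start at 0. Complex IV lies higher in both groups with siNELFA than in siControl in every library, complex V does so in siNELFA+siYAP, and siYAP spreads widest for the mitochondrially encoded subunits, from 447 to 784 CPM.

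With siNELFA alone, most of the genes were slightly above siControl in normalized counts and below it on the TPM scale, COX6C was well below it on both, and none passed the adjusted threshold. Of 98 genes, 91 had enough counts to be tested by edgeR's quasi-likelihood test. None had an adjusted p under 0.05, where 0.00564% of the 17727 genes tested did (a single gene), and 6 had a nominal p under 0.05, where 4.46% of all genes did. The libraries did not overlap in 15 genes that were higher (6.04% of all genes) and 2 that were lower (6.08%). DESeq2 gave 0 at the adjusted threshold (0.107% of all genes) and 4 at the nominal one (4.1% of the genes tested by edgeR). Above 0 were 64 of the 91 log2 fold changes, beside 50% of all genes tested, and their median was 0.14, beside 1e-04 for all genes. By complex the medians were 0.12 for complex I, 0.10 for II, 0.22 for III, 0.17 for IV and 0.16 for V, and -0.08 for the assembly factors. On the TPM scale 32 of 90 were above 0, beside 26.4% of all genes. There the median of these genes was -0.07, that of all genes fell to -0.19, and the difference between both was 0.12. The median lay above that of all genes on both scales, while its sign turned with the scaling. The median standard error of a single gene was 0.20, larger than the median of each complex except complex III.

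Deviations from the group means correlated by replicate number among siControl, siNELFA and siYAP. As described with the processing, this cannot tell whether numbers 2 and 3 pair. When the fit was blocked on the replicate number, 3 of the 91 passed the adjusted threshold, beside 5.21% of all genes tested (924 of 17727). Of these, 2 were higher (2.76% of all genes) and 1 was lower (2.45%). COX6C (chr8:99873200-99893707, minus strand, GRCh38, as are the positions that follow), a small nuclear subunit of complex IV, was 70.4, 46.6 and 52.8 CPM in siControl and 38.4, 34.6 and 24.1 in siNELFA. Every siNELFA library was lower than every siControl library, and within each replicate number the fall was seen as well. The log2 fold change was -0.80 (SE 0.25, edgeR adjusted p = 1.0), and -0.80 with the block (adjusted p = 0.0096). NDUFAF3 (chr3:49020459-49023495, plus strand), an assembly factor of the early complex I intermediates, was 13.8, 28.3 and 28 CPM in siControl and 35.5, 41.6 and 43.8 in siNELFA, also without overlap. Its blocked log2 fold change was 0.83 (adjusted p = 0.0131), and its low siControl value came from replicate 1. COX7A2 (chr6:75237675-75250323, minus strand), the ubiquitous form of complex IV subunit VIIa, was 65.2, 62.9 and 61.1 CPM in siControl and 86.2, 85.4 and 78.9 in siNELFA. This was a rise of 0.41 on the log2 scale with the block (adjusted p = 0.0471), and neither group had a replicate 1 value that stood out. NDUFAF1 (chr15:41387218-41409403, minus strand), another assembly factor of complex I, was 8.23, 9.26 and 7.55 CPM in siControl and 13.4, 11.7 and 18.3 in siNELFA. Its blocked log2 fold change of 0.78 was just outside the threshold (adjusted p = 0.0503). Without replicate 1, the blocked log2 fold changes were -0.76 for COX6C (adjusted p = 9.92e-09), 0.61 for NDUFAF3 (adjusted p = 1.62e-05) and 0.42 for COX7A2 (adjusted p = 0.000291). In that fit 12 of 90 genes passed, 9 higher and 3 lower, beside 15.7% of all genes (7.99% higher, 7.69% lower), a share near the background. It pairs numbers 2 and 3, which the check could not establish, so its adjusted p-values depend on that pairing. Without the block, the same libraries gave 18 of 18077 genes (0.0996%) past the threshold, and none of the respiratory chain genes.

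**Figure D3:**
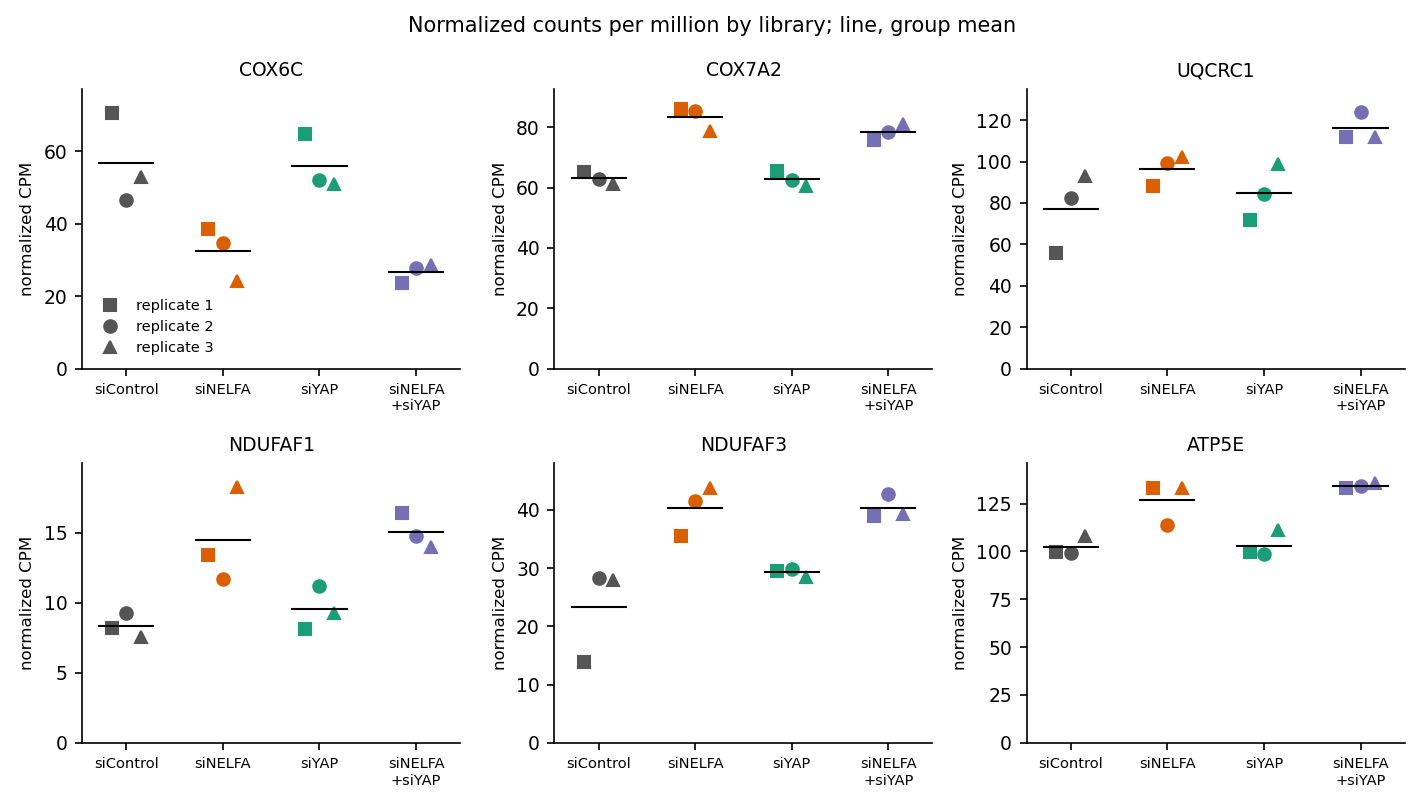
Normalized CPM of 6 genes in each of the 12 libraries, by group; marker shape gives the replicate, the line the mean of 3 libraries, and axes start at 0. In both groups with siNELFA, COX6C lies below siControl and siYAP in every library, and COX7A2, NDUFAF1, NDUFAF3 and ATP5E lie above both.

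With siYAP, no gene of the respiratory chain passed the main test at either threshold. Of 90 genes tested, 0 had an adjusted p under 0.05 in edgeR's quasi-likelihood test (0.00578% of all genes tested, which is YAP1 itself) and 0 had a nominal p under 0.05, beside 1.3% of all genes. DESeq2 likewise gave 0 at both thresholds (0.00314% of all genes at the adjusted one and 1.23% of those tested by edgeR at the nominal one), and the replicate block gave 0 at the adjusted (0.0173% of all genes) and 2 at the nominal one (9.11% of all genes). The median log2 fold change was 0.02, with 49 of 90 above 0 (49.8% of all genes) and 79 of 90 within 0.25 of 0. On the TPM scale the median was -0.06, with 35 of 90 above 0 (39.7% of all genes). The libraries did not overlap in 4 genes that were higher (3.6% of all genes) and 2 that were lower (4.2%). The furthest from 0 were NDUFAF4, an assembly factor, at -0.50, and ATP5D, the delta subunit of ATP synthase, at 0.48. ATP5D was 10.3, 23.1 and 22.4 CPM in siControl and 25.5, 26.9 and 25.1 in siYAP, and siControl replicate 1 was the lowest of the 6 values. Without that library the log2 fold change of ATP5D was 0.20. NDUFAF4 was 3.6, 9.59 and 8.54 CPM in siYAP, and without the low siYAP replicate 1 its log2 fold change was -0.19. The median standard error was 0.21, so a difference of that size in a single gene was not detectable.

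With both siRNA pools COX6C was the lowest gene and NDUFAF1 the highest, and again none passed the adjusted threshold. This comparison shares its siControl libraries with the previous ones. Whether the siNELFA+siYAP libraries repeat a single replicate is not stated. If they do, standard errors, p-values and counts of libraries lying apart in every comparison with this group treat repeats as replicates. Of 90 genes tested, 0 had an adjusted p under 0.05 in edgeR's quasi-likelihood test, where 0.428% of 17533 genes did, and 15 had a nominal p under 0.05, beside 18.5% of all genes. By DESeq2, 2 passed the adjusted threshold and 12 the nominal one (17.6% of the genes tested by edgeR). Of the 15, 13 were higher (8.27% of all genes were) and 2 were lower (10.2%). The libraries did not overlap in 31 genes that were higher (15.1% of all genes) and 4 that were lower (14.6%). The median log2 fold change was 0.13, with 57 of 90 above 0, beside -0.03 and 47.4% for all genes. On the TPM scale it was 0.01, with 47 of 90 above 0, beside -0.13 and 36.1% for all genes.

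COX6C was 23.5, 27.7 and 28.6 CPM with both pools, at a log2 fold change of -1.09 (SE 0.19, edgeR adjusted p = 0.0696). DESeq2 placed it past the threshold (adjusted p = 0.000365), together with NDUFAF1 (adjusted p = 0.00855), beside 5.88% of all genes. NDUFAF1 was 16.4, 14.8 and 14 CPM, a log2 fold change of 0.85 (SE 0.17, edgeR adjusted p = 0.0810). UQCRB, the complex III subunit that binds ubiquinone, was 161, 93.7 and 79.1 CPM in siControl and 70.3, 77.5 and 76.8 with both pools. The log2 fold change was -0.58 (SE 0.27, edgeR adjusted p = 0.304), and siControl replicate 1 was far above the other 5 values. Without it the log2 fold change of UQCRB was -0.19. UQCRC1, a core subunit of complex III, was 55.8, 82.4 and 93.0 CPM in siControl and 112, 124 and 112 in siNELFA+siYAP, a log2 fold change of 0.59 (SE 0.18, edgeR adjusted p = 0.168). ATP5E, the epsilon subunit of ATP synthase, was 99.5, 99.0 and 108 CPM in siControl and 133, 134 and 136 in siNELFA+siYAP, a log2 fold change of 0.40 (SE 0.10, edgeR adjusted p = 0.115). ATP5E and UQCRC1 did not overlap with siControl in any library. NDUFA4 was 54.0, 45.3 and 56.5 CPM in siControl and 66.7, 73.3 and 73.2 in siNELFA+siYAP, a log2 fold change of 0.45, but on the TPM scale its log2 fold change was 9e-04.

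Without siControl replicate 1, 17 of 91 genes passed the adjusted threshold, 13 higher and 4 lower, beside 24.4% of all genes (11.5% higher, 12.9% lower). With replicates 2 and 3 only, 13 of 90 passed, beside 17.9% of all genes, and with no filter on low counts COX6C alone did, beside 1.19%. The lower genes included COX6C at -0.89, and NDUFS3 at -0.41 and NDUFB8 at -0.38 of complex I. The 13 higher genes were COX7A2, COX5B and NDUFA4 of complex IV, ATP5E, ATP5B and ATP5J2 of complex V, NDUFB1 and NDUFB5 of complex I, SDHC, UQCRC1, NDUFAF1, NDUFAF3 and the read-through ATP5J2-PTCD1, at 0.22 for ATP5J2 to 0.85 for NDUFAF1. NDUFB8 shares 72% of its annotated transcript bases with an overlapping gene on the same strand, so its counts are uncertain. ATP5J2-PTCD1 shares 94.2% of its annotated transcript bases with PTCD1 and 5.78% with ATP5J2, so its counts need not come from a subunit gene.

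**Figure D4:**
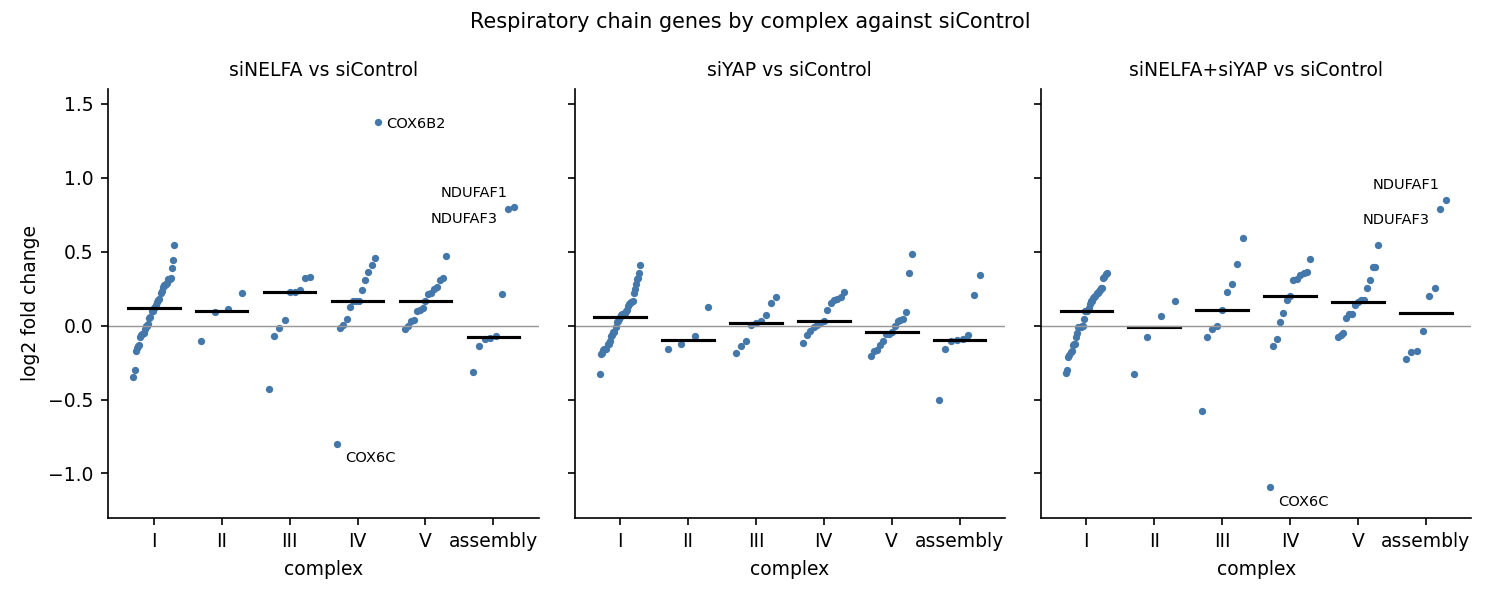
log2 fold change against siControl for every tested gene (points, sorted within each set), by complex and for the assembly factors, in the 3 knockdowns; the line is the median. Points lie around 0 with siYAP, while COX6C at -0.80 and -1.09 and NDUFAF1 at 0.80 and 0.85 stand out, with NDUFAF3 at 0.79 in both, for siNELFA and siNELFA+siYAP, apart from COX6B2, which had 0 to 25 counts per library.

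The siNELFA pool was added to 2 backgrounds, to control cells and to cells with siYAP, and these comparisons share no library. They are still not independent, because siControl and siYAP shared shifts between replicates. Their deviations from the group means correlated at 0.769, 0.65 and 0.746 by replicate number. In siNELFA+siYAP against siYAP, 0 of 90 genes passed the adjusted threshold of edgeR's quasi-likelihood test (0.035% of 17167 genes) and 16 had a nominal p under 0.05 (15.5% of all genes), 12 higher (6.66%) and 4 lower (8.85%). Without siYAP replicate 1, 16 of 90 passed the adjusted threshold, beside 16.5% of all genes, with replicates 2 and 3 only 6 did, beside 7.7%, and with no filter on low counts COX6C did, beside 0.695%. DESeq2 gave 1, COX6C (adjusted p = 2.19e-05), beside 3.01% of all genes, and 14 at the nominal threshold (15% of the genes tested by edgeR). COX6C was 64.8, 51.9 and 50.8 CPM in siYAP, and its log2 fold change against siYAP was -1.08 (SE 0.16, edgeR adjusted p = 0.0867). Of 90 genes tested in both comparisons, 62 had the same sign (68.9%, beside 65.1% of 16804 genes). In 10 genes the libraries lay apart and higher with siNELFA in both backgrounds, beside 2.52% of all genes, and in 2 they lay apart and lower in both, beside 2.49%.

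The 10 were COX7A2 and COX5B of complex IV, ATP5E of complex V, SDHC, the membrane anchor of complex II, UQCR10 of complex III, NDUFB1 and NDUFC2 of complex I with the read-through NDUFC2-KCTD14, and the assembly factors NDUFAF1 and NDUFAF3. COX6C was among the lower genes. These sets are in normalized CPM. On the TPM scale COX7A2 and NDUFAF1 of the 10 also lay apart in both backgrounds. ATP5E, SDHC, COX5B, UQCR10, NDUFB1, NDUFC2 and NDUFAF3 overlapped there between siNELFA and siControl, and NDUFC2-KCTD14 between siYAP and both pools. ATP5E, for example, was 53.1, 41.8 and 46.1 TPM in siNELFA and 42.7, 41.9 and 43.3 TPM in siControl. SDHC was 97.1, 102 and 92.6 CPM in siYAP and 121, 121 and 126 in siNELFA+siYAP, after 120, 109 and 98.6 in siControl and 126, 125 and 129 in siNELFA. COX5B was 37.5, 49.4 and 43.2 CPM in siControl and 59.5, 52.5 and 54.2 CPM with siNELFA. Against 49.1, 53.6 and 47.9 CPM in siYAP, both pools gave 56.5, 55.8 and 54.2 CPM, so its margins were narrow. NDUFC2-KCTD14 shares 64% of its annotated transcript bases with NDUFC2, so these 2 are not separate observations. With replicates 2 and 3 alone, 28 of 90 genes lay higher in both backgrounds, beside 13.6% of all genes, and 4 lay lower in both, beside 14.6%. COX6C, NDUFB8 and NDUFS3 were among the lower ones.

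Adding siYAP gave no such set over all libraries. In siNELFA+siYAP against siNELFA, 0 of 91 genes passed the adjusted threshold (0.00573% of 17463 genes), and UQCRC1 alone had a nominal p under 0.05 (6.62% of all genes), at a log2 fold change of 0.27 (SE 0.11, adjusted p = 0.735). DESeq2 gave 0 at both thresholds (0.27% of all genes at the adjusted one and 6.58% of those tested by edgeR at the nominal one). No gene lay apart in one direction when siYAP was added in both backgrounds, beside 0.674% of all genes higher and 0.912% lower. With shares this small over all genes, a count of 0 among 90 is near the background. With replicates 2 and 3 alone, 0 of 90 lay higher in both (4.67% of all genes) and 5 lay lower in both (7.41%), which were NDUFAB1, SDHB, NDUFAF4, ATP5J and ATP5O. These 5 make up 5.56% of the 90, a share near the background. The difference between the siNELFA effects with and without siYAP was tested as an interaction over the 12 libraries. Of 92 genes, 0 passed the adjusted threshold (0 of 18525 genes did) and ATP5G2 alone had a nominal p under 0.05, beside 1.76% of all genes.

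Subunits that are catalytic or are named core subunits can be followed one complex at a time in siNELFA+siYAP. In complex I, log2 fold changes were 0.25 for NDUFS7, 0.17 for NDUFS8, 0.05 for NDUFV2, -0.05 for NDUFS1, -0.12 for NDUFV1 and -0.21 for NDUFS3. In complex II, SDHC was at 0.17, SDHB, the iron-sulfur subunit, at 0.06, SDHA, the flavoprotein, at -0.08 and SDHD, the second membrane anchor, at -0.33. In complex III, UQCRC1 at 0.59 stood apart from its partner core subunit UQCRC2 at -0.08, and UQCRFS1, the Rieske iron-sulfur protein, was at 0.11. In complex V the beta subunit ATP5B was at 0.39 and the alpha subunit ATP5A1, which alternates with it in the catalytic ring, at -0.07. Of the core genes named here, UQCRC1 and ATP5B had a nominal p under 0.05, where 18.5% of all genes did. Several of these values leaned on siControl replicate 1. Without it, UQCRC1 was at 0.41, ATP5B at 0.23, SDHD at -0.17, SDHC at 0.26 and NDUFS3 at -0.41. The values of UQCRC2, SDHA and NDUFS8 changed sign, to 0.09, 0.08 and -0.04.

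Genes around the respiratory chain were read from lists outside the naming rule. The 13 mitochondrially encoded subunits were all below siControl with siYAP (median log2 fold change -0.47) and with siNELFA (median -0.18). A nominal p under 0.05 was found for 2 with siYAP (1.3% of all genes) and for none with siNELFA (4.46%). With siNELFA+siYAP 7 of 13 were above siControl (median 0.05). None passed the adjusted threshold in edgeR's quasi-likelihood test. In siYAP their sum was 447, 784 and 769 CPM, lowest in replicate 1, and in siControl it was 955, 915 and 925 CPM. Without siYAP replicate 1 the median with siYAP was -0.19, with 11 of 13 below siControl. Without siNELFA replicate 1 the median with siNELFA was -0.10, with 10 of 13 below, and without siNELFA replicate 3 it was -0.31. Of 40 further assembly factors of the complexes, 1 passed the adjusted threshold in siNELFA+siYAP (0.428% of all genes did). Without siControl replicate 1, 6 did (24.4% of all genes did). The 1 was ATPAF1, a chaperone of the ATP synthase beta subunit, at 38.2, 28.3 and 29.5 CPM in siControl and 13.1, 13.5 and 13.7 in siNELFA+siYAP, a log2 fold change of -1.25 (SE 0.17, edgeR adjusted p = 0.0423). With siNELFA it was 16.2, 21.1 and 15.6 CPM, a log2 fold change of -0.86, past the threshold with the replicate block (adjusted p = 0.014). With that block, both pools gave an adjusted p of 0.194. The ATPAF1 call with both pools was kept without siControl replicate 1 (adjusted p = 1.1e-05) and lost without any other of the 6 libraries (adjusted p = 0.0503 to 0.389), at log2 fold changes of -1.33 to -1.22. Of 14 regulators of mitochondrial gene expression, 0 passed the adjusted threshold in any comparison with siControl (at most 0.428% of all genes did). With both pools and without siControl replicate 1, 5 did, beside 24.4% of all genes. PPARGC1A, a coactivator of mitochondrial biogenesis, was 74.1, 10.6 and 11.2 CPM in siControl, and with both pools its log2 fold change was -2.18 (edgeR adjusted p = 0.21). Without siControl replicate 1 it was -0.62 (adjusted p = 0.0158). NRF1, GABPA and YY1, the factors whose motifs were searched, were at 0.08, -0.26 and -0.06 with siNELFA, and none had a nominal p under 0.05. For comparison, of 37 proteasome subunit genes 33 were above 0 with siNELFA (median 0.19), and of 82 cytosolic ribosomal protein genes 57 were (median 0.09).

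Libraries of one group differed among themselves, and replicate 1 differed most. The comparison used the 89 genes averaging at least 50 counts. In siControl, 26 of the 89 (29.2%) differed by over 0.5 on the log2 scale between replicate 1 and the mean of replicates 2 and 3, beside 46.8% of 12971 genes, and 0 did so between replicates 2 and 3. In siNELFA+siYAP, whose library names share a single replicate number, 0 did so. Of the 89, 42 (47.2%) were lower in replicate 1 in each of siControl, siNELFA and siYAP, beside 37.7% of all genes, and 15 (16.9%) were higher in each, beside 31.4%. Among complexes I to V, complex V was the most one-sided, with 9 of 15 lower in each group and 1 higher. Of the 8 assembly factors, 7 were lower in replicate 1 in siControl, 8 in siNELFA and 7 in siYAP. ATP5G1 was lower in replicate 1 at log2 differences of -1.44 in siControl, -0.99 in siNELFA and -0.86 in siYAP. NDUFA1, a complex I subunit, was higher by 0.80, 0.72 and 0.73. The transcripts are short, with a median of 801.5 bases against 3375 for protein-coding genes at that level. Across the 89 genes, which are not replicates, the replicate 1 difference and transcript length had a Spearman rho of 0.0386 (0.121 over 11638 genes). The lincRNA share of counts was 4.3% to 5.83% in replicate 1 of these 3 groups and 1.46% to 1.84% in their replicates 2 and 3, and its part in the result was not tested.

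**Figure D5:**
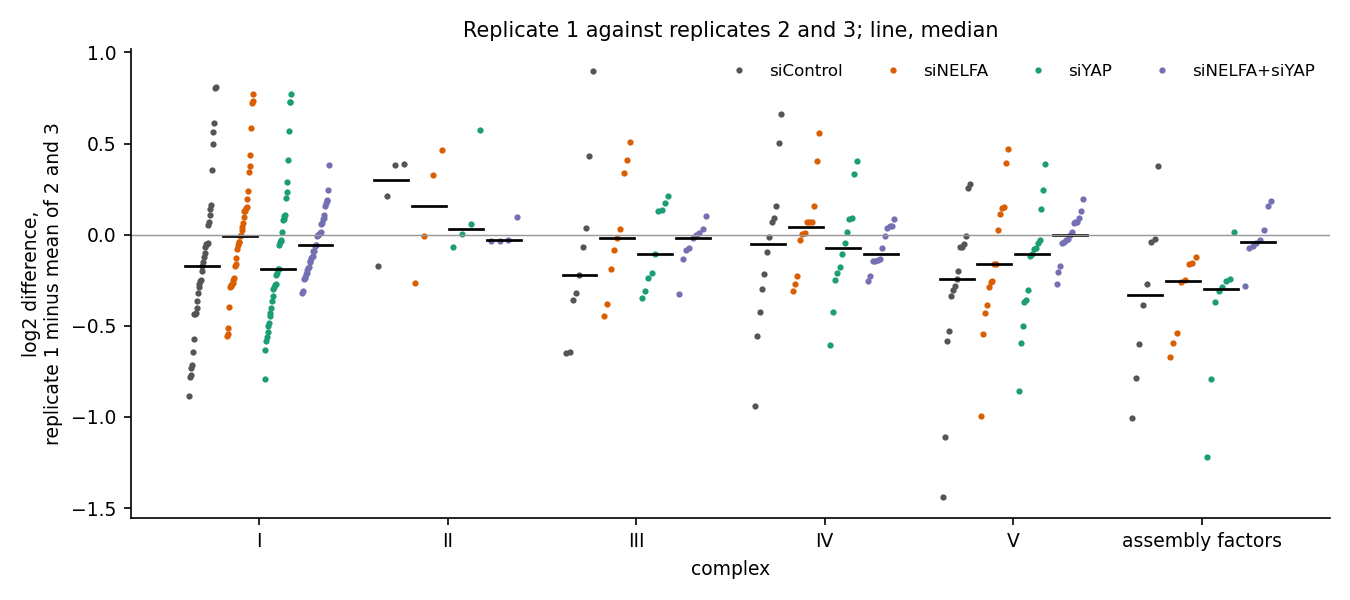
log2 difference between replicate 1 and the mean of replicates 2 and 3 for each of the genes averaging at least 50 counts, by complex and group; the line is the median. In siControl, siNELFA and siYAP points spread from -1.44 to 0.90, and complex V and the assembly factors lie mostly below 0. The siNELFA+siYAP points stay between -0.32 and 0.38.

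Near-identical copies bear on some of these counts. The table lists 162 pseudogenes named after 46 of the genes, of which 67 had any count, and together they held 1.02% as many counts as the genes themselves. The highest was SDHAP1, with a mean of 341 counts beside 2250 for SDHA, and 69.4% of the annotated transcript bases of SDHA lie under another gene on the same strand, so SDHA is uncertain. COX6C has 17 pseudogenes with 26.1 mean counts in sum, beside 622 for COX6C. UQCRHL, a near-identical intronless copy of UQCRH, had 34 to 96 counts per library, and its reads and those of UQCRH cannot be told apart. NDUFC2-KCTD14 had a mean of 622 counts and 0.000882 TPM in siControl, so the deposited units disagree on it.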

How the data were processed

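RNA was measured in 12 rRNA-depleted stranded libraries, 3 in each of 4 groups taken from the GEO labels. The authors aligned reads to GRCh38 with STAR in its 2-pass mode and counted them per gene with featureCounts against Ensembl annotation, and the submitters' processing notes also name FastQC, cutadapt, Cufflinks and DESeq2. Their versions and the counting options are not given in the sources used here. The deposited count table holds raw counts per gene and the deposited TPM table holds TPM computed by the authors, which is not a rescaling of those counts. The FPKM columns were not used.

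Totals were 9608145 to 18803104 counts, and counting error is only part of the spread between libraries. Of 117151 counts of 1 to 20, 80.7% were even, and whether each end of a read pair was counted is not stated. Each comparison used its 6 libraries in edgeR 4.0.16 (R 4.3.3), with TMM factors, filterByExpr (minimum count 10, minimum total 15, proportion 70%) and the quasi-likelihood test. P-values were two-sided and adjusted by Benjamini-Hochberg over all genes tested, with a threshold of 0.05. The standard error is the size of the log2 fold change divided by the square root of F. Normalized CPM used TMM factors over the 12 libraries. "Libraries do not overlap" means that the 3 values of one group all lie above the 3 of the other.

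Whether replicate numbers pair samples was checked by the correlation, over 12971 genes, of deviations from the group means. It was 0.65 to 0.889 for every pair of equal numbers among siControl, siNELFA and siYAP, and -0.0512 to 0.0277 for pairs with siNELFA+siYAP. Replicate 1 stood apart in the first 3 groups, so replicates 2 and 3 both deviate to the other side of the group mean. The check therefore cannot tell whether numbers 2 and 3 pair. Blocked values are given beside results for the first 3 groups.

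The alternatives tried were RLE factors, DESeq2 1.42.0, stricter and looser filters, limma 3.58.1 on log2(TPM + 1) and log2(TPM + 0.1) with a mean of at least 1 TPM, all 12 libraries in 1 fit, protein-coding genes only, the replicate block, and leaving out libraries. The interaction fit, the comparison of both backgrounds with replicates 2 and 3 and the list medians without single libraries were chosen after seeing the data. Scripts were tested on simulated data. Figures were drawn with matplotlib 3.10.9. The members and lists were chosen with earlier results of these data known. Genes were named if they passed the adjusted threshold (with the block among siControl, siNELFA and siYAP). Also named were the highest and lowest of their complex among those averaging 50 counts, and the 3 highest in TPM of their complex. The tissue isoforms, the core subunits and the siRNA targets were named as well. Others, such as the genes lying apart in both backgrounds, were chosen after their values were seen. Values of 1 of the genes are not reported here by name, and it is kept in the counts and medians.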

Additional observations from a re-analysis of the deposited data

How the results depend on the processing

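The count of genes past the adjusted threshold in siNELFA against siControl was 0, and became 3 with the replicate block, and with the block and a number left out it was 3 to 12, with 12 without replicate 1. The 12 rest on a pairing of numbers 2 and 3 that was not established. In siNELFA+siYAP against siControl the count was 0 and became 1 with no filter on low counts, 2 by DESeq2, 13 with replicates 2 and 3 only, and 0 to 17 with 1 library left out, with 17 without siControl replicate 1. In siNELFA+siYAP against siYAP it was 0 and became 1 with no filter, 1 by DESeq2, 6 with replicates 2 and 3 only, and 0 to 16 with 1 library left out, with 16 without siYAP replicate 1. Counts over all genes rose alike in these fits, to 4531 of 18587 and 2937 of 17773 genes without those libraries. The median of the genes changed sign under some alternatives. On the TPM scale, with pseudocounts of 1 and 0.1, the median log2 fold change was -0.0732 and -0.0735 in siNELFA against siControl, 0.0132 and 0.0138 in siNELFA+siYAP against siControl, and 0.0893 and 0.0899 in siNELFA+siYAP against siNELFA. The first turned from 0.14 and the last from -0.01. In siYAP against siControl the median of 0.02 turned to -0.0582 and -0.0587 on the TPM scale and lay between -0.0174 and 0.0502 with 1 library left out. As a share of protein-coding nuclear counts the genes made up 0.555% (siControl), 0.581% (siNELFA), 0.567% (siYAP) and 0.601% (both pools), and as a share of TPM 0.825%, 0.776%, 0.796% and 0.819% in the same order. The cause of these differences was not tested. The replicate block changed no other count past the adjusted threshold among these genes. With 3 libraries a group and median standard errors of 0.13 to 0.21, changes in single genes of that size were not detectable.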

Other observations

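Gene groups beside the respiratory chain gave further values. Of 37 proteasome subunit genes, 33 were above siControl in siNELFA+siYAP (median log2 fold change 0.27), and 34 were above siYAP (median 0.31). Of the 37, 7 and 12 were higher with a nominal p under 0.05 in edgeR's quasi-likelihood test, beside 8.27% and 6.66% of all genes. None was lower, beside 10.2% and 8.85%. At the adjusted threshold that test gave 0 (0.428% and 0.035% of all genes), while DESeq2 gave 2 and 1 (5.88% and 3.01%). PSMB10, an immunoproteasome subunit, had the highest value in both, at 1.10 and 0.72. In siControl and in siYAP, 34 of the 37 were lower in replicate 1 than in replicates 2 and 3. Their median log2 differences were -0.56 and -0.59, while in siNELFA+siYAP the median was -0.0031. The part of replicate 1 in the proteasome values was not tested. The 13 mitochondrially encoded subunits were all higher in siNELFA+siYAP than in siYAP. Their median log2 fold change was 0.53, and 3 had a nominal p under 0.05, beside 15.5% of all genes. None of them passed the adjusted threshold (0.035% of all genes). The siYAP replicate 1 library was the lowest of the 12 for their sum, and without it the median was 0.25, with 12 of 13 higher. In that fit 6 passed the adjusted threshold of edgeR's test, beside 16.5% of all genes. Of 78 mitochondrial ribosomal protein genes, 34 were above siControl in siNELFA+siYAP, with a median of -0.02.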
